A study of Bos taurus with 10 samples.

Results

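The levels of 10 imprinted genes were examined in single bovine early blastocysts, 5 WT and 5 *SOX2* KO. The 10 genes are *PEG3*, *PEG10*, *MEST*, *SNRPN*, *PLAGL1*, *NNAT*, *GRB10*, *CDKN1C*, *PHLDA2* and *MEG3*. They were taken by symbol from the authors' table of 20112 genes, which held all 10. WT embryos carried mRNA of BE3, a cytosine base editor, injected into the zygote without sgRNA. *SOX2* KO embryos carried the same BE3 mRNA together with a mixture of sgRNAs designed to turn *SOX2* codons into premature stops. All embryos were made by in vitro fertilization and reached the early blastocyst, at day 7.0 by the sample labels; the methods of the study give a slightly later time, and the sources do not settle which holds. The labels do not say which embryos shared a dam, a sire or an injection session, so the embryos may not be independent. A p-value here sets the group difference against the spread between these embryos within the groups. Each library is a whole embryo, in which a lower share of cells of a type and less RNA per cell cannot be told apart.

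An imprinted gene is transcribed mainly from a single parental allele, because methylation laid down in the egg or sperm marks one copy and survives the wave of demethylation after fertilization. Many imprinted genes act on growth of the fetus and the placenta, and their regulation is a known concern in bovine embryos made in vitro. *PEG3*, *PEG10*, *MEST*, *SNRPN*, *PLAGL1* and *NNAT* are known as paternally expressed genes, and *GRB10*, *CDKN1C*, *PHLDA2* and *MEG3* as maternally expressed genes, with exceptions by tissue and isoform. The table gives a level per gene and carries no allele information, so neither the expressed allele nor a loss of imprinting can be read from it.

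Levels are normalized read counts, in which DESeq2 size factors put the embryos on a common scale. The reads on genes, recovered from these values, numbered 2223670 to 5134855 per WT embryo and 2578284 to 4337342 per *SOX2* KO embryo. A single read stood for 0.590 to 1.48 units, and up to 3 reads are treated as the detection floor. The number of genes with a read was 15919 to 18092 across WT and 17987 to 19813 across *SOX2* KO embryos. The 18S rRNA gene *RN18S1* took 26.4% to 37.0% and 32.5% to 45.0% of the reads. *SOX2* itself lay between 56.5 and 93.4 in WT and between 26.4 and 82.1 in *SOX2* KO embryos, and its log2 fold change of -0.55 had an SE of 0.27 (limma adjusted p = 0.167). Its transcript level therefore does not separate the groups, and stop codons cannot be read from counts per gene. The study reports that the sequenced embryos were genotyped from part of their cDNA.

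Of the 10 imprinted genes, *NNAT* was higher in *SOX2* KO embryos and none was lower. Here a gene was called when its Benjamini-Hochberg adjusted p from limma, over the 20056 genes tested, was at most 0.05 and its fold change was at least 2. At this rule 8.93% of all tested genes were called higher and 1.16% lower, 10.1% together, so 1 call among 10 genes is near the background. By level, the higher and lower shares were 14.1% and 0.195% of genes with a mean of 1 to under 10, 6.76% and 2.27% from there to under 100, and 2.29% and 1.34% above. The median log2 fold change was 0.41 over the 10 genes and 0.25 over all tested genes. Over the 6 paternally expressed genes it was -0.20, and over the 4 maternally expressed genes 0.71. In all, 4 of the 10 genes (*PEG10*, *MEST*, *PLAGL1* and *PHLDA2*) had a mean under 10, where reads are few.

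**Figure D1:**
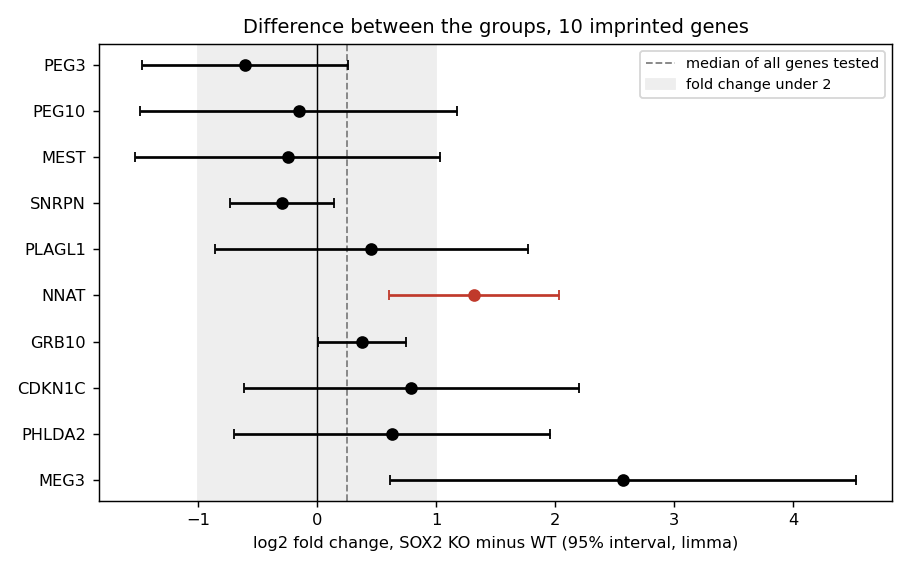
Log2 fold change of each imprinted gene (*SOX2* KO minus WT, x axis, on the scale of log2(normalized read count + 1)) with its 95% interval from limma; 5 embryos per group. The interval of *NNAT* (red, called) runs from 0.61 to 2.04, that of *MEG3* from 0.61 to 4.53, and those of *GRB10* (0.0054 to 0.74) and *SNRPN* (-0.74 to 0.14) lie within a fold change of 2; the dashed line is the median of all tested genes at 0.25.

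*NNAT* encodes neuronatin, a small proteolipid of the endoplasmic reticulum that affects calcium handling. Its normalized read counts were 8.39, 8.90, 16.9, 16.3 and 13.0 in the WT embryos nc1 to nc5. They were 51.2, 35.7, 33.7, 21.4 and 25.4 in the *SOX2* KO embryos ko1 to ko5. Every *SOX2* KO embryo was above every WT embryo, and the counts rest on 77 reads in WT and 150 in *SOX2* KO. Over all tested genes, 6.41% had each *SOX2* KO embryo above each WT embryo in this way. The mean rose from 12.7 ± 3.99 to 33.5 ± 11.5 (SD, n = 5 each). Between the group means of log2(normalized read count + 1), the log2 fold change was 1.32 with an SE of 0.34 (limma adjusted p = 0.0174). Count models on the reads gave 1.38 with DESeq2 (adjusted p = 0.00439) and 1.29 with edgeR (adjusted p = 0.0216). The call was lost without ko1 (limma adjusted p = 0.0604), and with a covariate for the *RN18S1* share the log2 fold change was 1.22 (limma adjusted p = 0.204).

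*NNAT* shares its span with *BLCAP* in the RefSeq gene table of ARS-UCD2.0; in mammals it sits in an intron of that gene. *BLCAP*, an apoptosis-related gene, had 138 to 197 across WT and 156 to 264 across *SOX2* KO embryos, and its log2 fold change was 0.22 (limma adjusted p = 0.379). Reads of *NNAT* and *BLCAP* could have been split by the counting, since the genes share a span. How the counting handled such reads is not given in the sources used here.

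*PEG3*, a zinc finger protein gene named for its paternal expression, had 92.3, 101, 75.6, 113 and 201 in the WT embryos. The *SOX2* KO embryos had 96.9, 40.9, 155, 19.7 and 151. The groups overlapped, with nc5 highest and ko4 lowest, and the *SOX2* KO embryos spanned a 7.84-fold range against 2.66-fold in WT. On the log2 scale *SOX2* KO differed by -0.61 (95% interval -1.48 to 0.26, limma adjusted p = 0.316). Without ko4 it was -0.16 (limma adjusted p = 0.751). *PEG3* shares its span with the antisense gene *APEG3*, which was not analysed here.

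*SNRPN*, which encodes a core protein of spliceosomal particles, had 171, 205, 108, 186 and 144 in WT and 102, 136, 97.7, 196 and 135 in *SOX2* KO embryos. The means were 163 ± 37.6 and 133 ± 39.1 (SD, n = 5 each), with a log2 fold change of -0.30 (95% interval -0.74 to 0.14, limma adjusted p = 0.335). It is joined to *SNURF* in a single transcript in mammals. RefSeq lists *SNURF* as a gene of its own that shares the span of *SNRPN*, so reads could have been split between them by the counting.

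*PEG10*, a gene of retrotransposon origin needed in the mouse placenta, had 6.11, 1.48, 3.98, 19.4 and 11.8 in WT and 16.7, 1.32, 8.14, 2.46 and 9.22 in *SOX2* KO embryos. The nc2 and ko2 embryos held 1 read each. *MEST*, which encodes a protein of the alpha/beta hydrolase fold, had 4.58, 1.48, 10.9, 1.55 and 11.2 in WT and 6.68, 1.32, 9.30, 1.64 and 3.46 in *SOX2* KO. *PLAGL1*, a zinc finger transcription factor that regulates other imprinted genes, had 3.05, 0, 0.994, 8.55 and 2.36 in WT and 5.57, 2.64, 8.14, 1.64 and 1.15 in *SOX2* KO. All 3 genes overlapped widely between the groups. On the log2 scale *PEG10* differed by -0.16, *MEST* by -0.25 and *PLAGL1* by 0.45 (limma adjusted p = 0.890, 0.812 and 0.650). The 95% intervals ran from -1.49 to 1.17 for *PEG10*, from -1.54 to 1.04 for *MEST* and from -0.86 to 1.77 for *PLAGL1*, so a 2-fold difference was not excluded for any of them at this depth. In RefSeq the span of *MEST* overlaps that of *COPG2*, and the span of *PLAGL1* that of *ZC2HC1B*. Reads of these pairs could have been split by the counting.

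**Figure D2:**
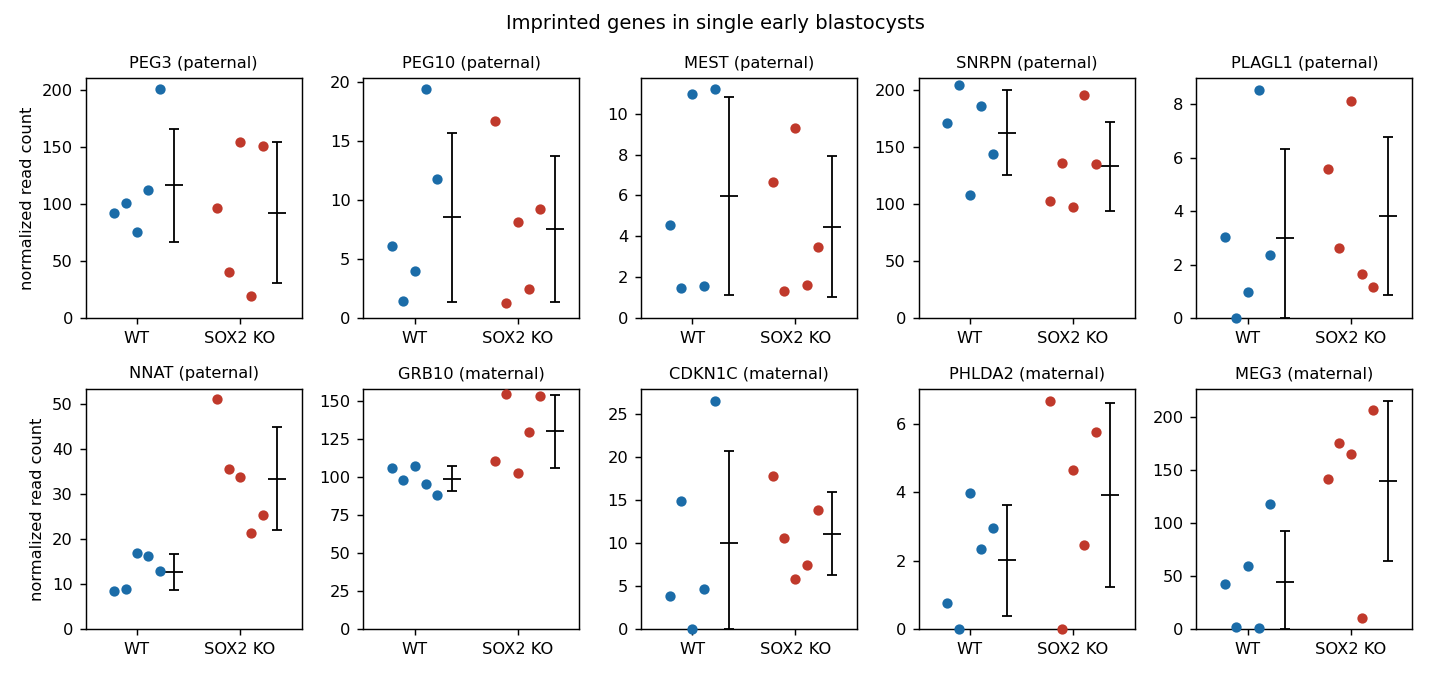
Normalized read count (y axis, linear, a scale for each gene) of the 10 imprinted genes in 5 WT (blue) and 5 *SOX2* KO embryos (red), 1 point per embryo in the order of the embryo numbers, with mean and SD beside them (SD bars end at 0). Only the *NNAT* panel shows groups without overlap, and in the *MEG3* panel nc2 (1.48), nc4 (0.777) and ko4 (10.7) lie below the other embryos.

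Among the maternally expressed genes, *GRB10* had the narrowest range. It encodes an adaptor protein that binds the insulin and IGF1 receptors and restrains their signalling. *GRB10* had 106, 97.9, 107, 95.6 and 87.9 in WT and 110, 155, 102, 130 and 153 in *SOX2* KO embryos. All but ko3 of the *SOX2* KO embryos were above the highest WT embryo. Its log2 fold change of 0.37 had an SE of 0.18 and an adjusted p of 0.149 in limma. The 95% interval, 0.0054 to 0.74, did not reach a 2-fold difference.

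*CDKN1C* encodes p57, an inhibitor of cyclin-dependent kinases that lets trophoblast giant cells leave the mitotic cell cycle in mice. It had 3.82, 14.8, 0, 4.66 and 26.6 in WT and 17.8, 10.6, 5.81, 7.39 and 13.8 in *SOX2* KO embryos. WT embryos ranged from 0 reads in nc3 to 45 reads in nc5, and the *SOX2* KO embryos lay inside that range. The log2 fold change was 0.79 (95% interval -0.62 to 2.20, limma adjusted p = 0.432). The count models gave 0.14 with DESeq2 and 0.028 with edgeR.

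*PHLDA2*, a pleckstrin homology protein gene that limits placental growth in mice, was near the floor in every embryo. Its counts were 0.763, 0, 3.98, 2.33 and 2.95 in WT and 6.68, 0, 4.65, 2.46 and 5.77 in *SOX2* KO, which is 13 and 18 reads in all. No embryo held more than 6 reads. The log2 fold change was 0.63 (95% interval -0.70 to 1.96, limma adjusted p = 0.516), so a difference was not detectable at this depth.

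*MEG3*, a long non-coding RNA gene, had the widest spread of the 10 genes. Its counts were 42.0, 1.48, 59.7, 0.777 and 118 in WT and 141, 176, 165, 10.7 and 206 in *SOX2* KO embryos. In reads, nc2 and nc4 held 1 each, ko4 held 13, and the other embryos held 55 to 200. The *SOX2* KO embryos other than ko4 were above every WT embryo, while ko4 was below nc1, nc3 and nc5. The means were 44.4 ± 48.5 and 140 ± 75.9 (SD, n = 5 each). Between the group means of log2(normalized read count + 1), the log2 fold change was 2.57 with an SE of 0.94 (limma adjusted p = 0.0710). The difference thus missed the threshold over all 10 embryos. On this log scale it was 1.88 without nc2 and 1.76 without nc4, the embryos with 1 read each. Count models gave smaller values, 1.65 with DESeq2 (adjusted p = 0.313) and 1.48 with edgeR (adjusted p = 0.114). With the covariate for the *RN18S1* share it was 1.48 (limma adjusted p = 0.602).

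The low *MEG3* embryos were also those with low *XIST*, the RNA that coats the inactive X chromosome. *XIST* had 11.9 in nc2, 429 in nc4 and 33.7 in ko4, against 1267 to 2819 in the other 7 embryos. Those same 3 embryos had the 3 lowest *MEG3* counts. The sex of the embryos is not given in the sources used here, so it may be unbalanced between the groups, which was not tested. The groups overlapped in *XIST* itself (log2 fold change 0.67, limma adjusted p = 0.722). With log2(*XIST* + 1) as a covariate, chosen after the values were seen, the log2 fold change of *MEG3* was 2.13 and passed both thresholds (limma adjusted p = 0.0150). Because *XIST* is low in the same embryos as *MEG3*, this fit is no independent test of *MEG3*. Apart from nc2, nc4 and ko4, *MEG3* ran from 42.0 to 118 over the 3 other WT embryos and from 141 to 206 over the 4 other *SOX2* KO embryos. This is a description without a test, since the embryos set aside are the lowest in *MEG3* itself. Of the 10 fits without 1 embryo, *MEG3* passed in 3, those without ko4 (adjusted p = 0.0130), without nc5 (0.0278) and without nc3 (0.0430), all from limma. *NNAT* kept its call with the *XIST* covariate (limma adjusted p = 0.0151) and without nc2, nc4 and ko4 (limma adjusted p = 0.0203).

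*MEG3* belongs to the DLK1-DIO3 region, where *DLK1*, *RTL1* and *DIO3* are known as paternally expressed and *MEG3*, *MEG8* and *MEG9* as maternally expressed. *DLK1* is next to *MEG3* in the RefSeq gene order of ARS-UCD2.0. *MEG8*, also a non-coding RNA gene, had 29.8, 4.45, 41.8, 8.55 and 140 in WT and 158, 123, 100, 24.6 and 201 in *SOX2* KO embryos. Its 3 lowest embryos were again nc2, nc4 and ko4. *MEG8* was called higher, by 2.01 on the log2 scale with an SE of 0.64 (limma adjusted p = 0.0424), a call that 3 of the 10 fits leaving out 1 embryo kept. It was lost with DESeq2 (1.43, adjusted p = 0.250), with edgeR (1.25, adjusted p = 0.118) and with the *RN18S1* covariate (1.43, limma adjusted p = 0.447). With the *XIST* covariate, chosen after the values were seen, the log2 fold change of *MEG8* was 1.71 (limma adjusted p = 0.00601). The embryos low in *XIST* are those lowest in *MEG8*, so this fit is a description and no support for the call.

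*RTL1*, a retrotransposon-derived gene needed for the fetal capillaries of the mouse placenta, had 3.05, 0, 3.98, 0 and 0 in WT and 12.2, 10.6, 16.3, 5.75 and 24.2 in *SOX2* KO embryos. No WT embryo reached the lowest *SOX2* KO embryo. The totals were 8 and 61 reads, and the call (log2 fold change 2.89, SE 0.60, limma adjusted p = 0.00523) was kept in all 10 fits without 1 embryo. With the *RN18S1* covariate it was lost (1.73, limma adjusted p = 0.224). In RefSeq its span is shared with *MEG8* and with an antisense RNA gene, *PEG11AS*, so reads could have moved between them.

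*DIO3*, an enzyme gene for the inactivation of thyroid hormone, had 2 reads over the WT and 17 over the *SOX2* KO embryos (limma adjusted p = 0.0424). That call was kept in 2 of the 10 fits without 1 embryo. *DLK1*, which encodes a membrane protein of the EGF-like family, had 1 read in WT and 11 in *SOX2* KO (limma adjusted p = 0.131), and *MEG9* had 16 and 26 (limma adjusted p = 0.274). Of the 5 tested genes of the region besides *MEG3*, 3 were called higher (*RTL1*, *DIO3* and *MEG8*) and none lower. All but *MEG8* have a mean under 10, where 14.1% of all tested genes were called higher.

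**Figure D3:**
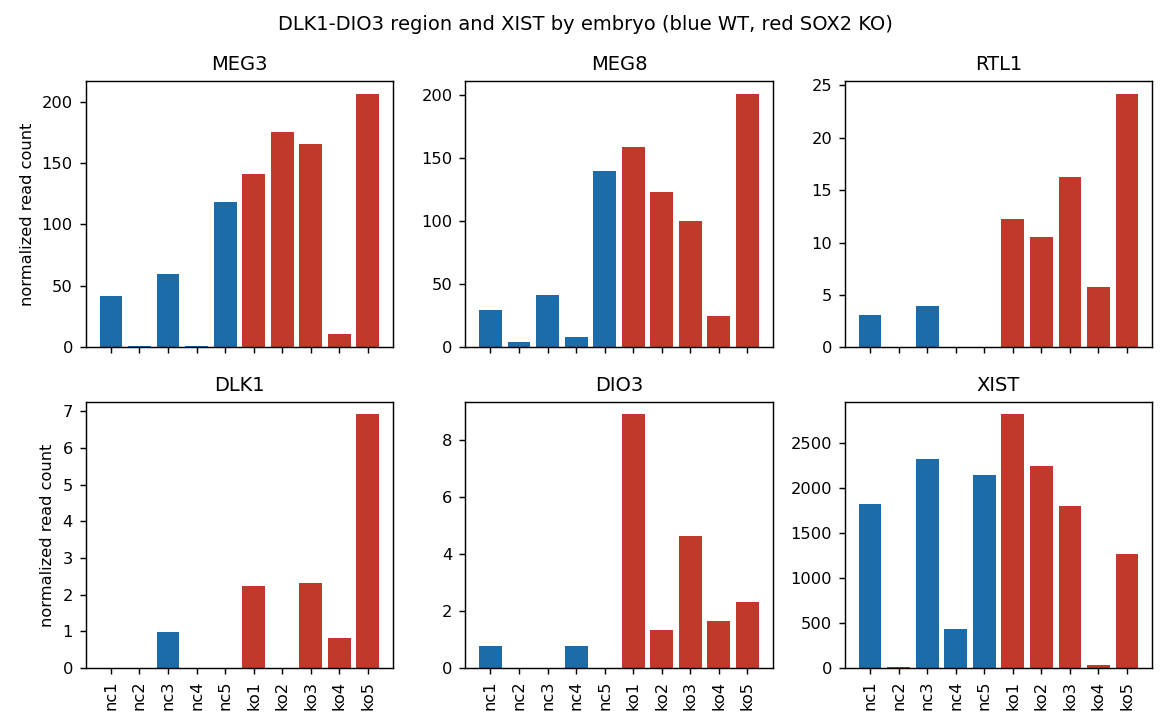
Normalized read count (y axis, linear from 0) of 5 genes of the DLK1-DIO3 region and of *XIST* in each embryo; bars are single embryos, blue WT and red *SOX2* KO. *MEG3* and *MEG8* are lowest in nc2, nc4 and ko4, the 3 embryos in which *XIST* is lowest at 11.9, 429 and 33.7; *RTL1* reaches 3.98 in WT and starts at 5.75 in *SOX2* KO.

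The spread between embryos of the same group differed widely among the 10 genes. The SD of log2(normalized read count + 1) within groups was 2.33 for *MEG3*, 1.37 for *CDKN1C* and 0.45 for *NNAT*, where tested genes with a mean of 10 to under 100 had a median of 0.46. It exceeded that of 99.8% of these genes for *MEG3*, of 97.7% for *CDKN1C* and of 48.4% for *NNAT*. At a mean of 100 or more, where the median was 0.28, it was 0.97 for *PEG3*, 0.38 for *SNRPN* and 0.21 for *GRB10*. That of *PEG3* exceeded 99.2% of the genes at that level and that of *GRB10* 18.7%. The 4 genes with a mean under 10 had an SD of 1.04 to 1.19, against a median of 0.93 for tested genes at that level. These shares are descriptions, since genes of an embryo vary together. No embryo was low throughout. In WT, nc2 was the lowest for 4 genes and nc5 the highest for 4. In *SOX2* KO, ko1 was the highest for 4 genes, and ko2, ko3 and ko4 were each the lowest for 3.

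**Figure D4:**
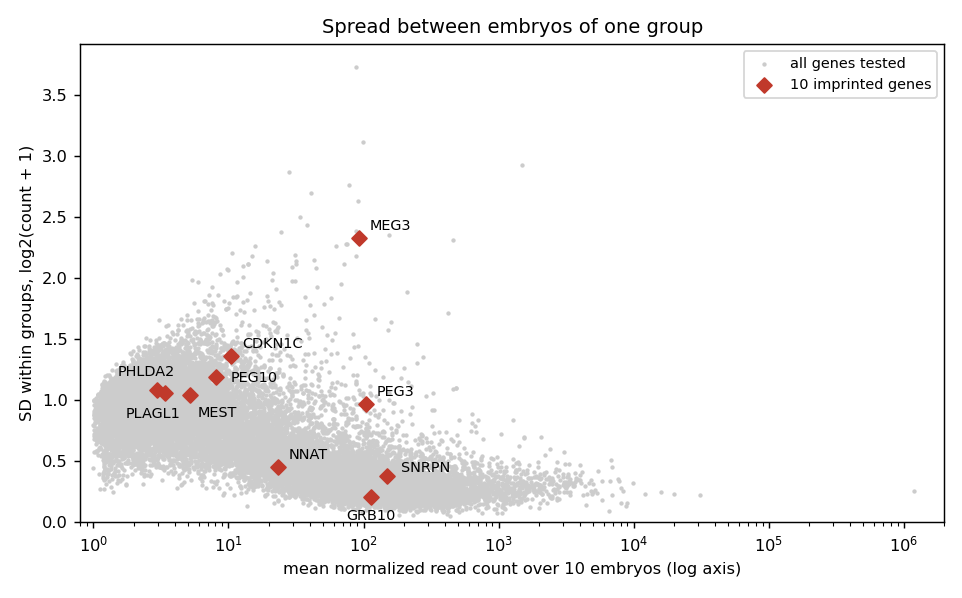
SD within groups of log2(normalized read count + 1) (y axis) against the mean normalized read count over 10 embryos (x axis, log scale); grey points are all 20056 tested genes and red diamonds the 10 imprinted genes. *MEG3* (2.33), *CDKN1C* (1.37) and *PEG3* (0.97) lie in the upper part of the cloud at their level, and *GRB10* (0.21) in the lower part.

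A list of 69 other genes reported as imprinted in human, mouse or cattle was followed beside the 10, and 55 of them were in the table and tested. In *SOX2* KO embryos 11 of the 55 were called higher, a share of 20% against the 8.93% of all tested genes, and none was called lower. These genes are mostly of low level, with 28 under a mean of 10, where the background of higher calls was 14.1%. In that range 8 of 28 were called higher. Of the 18 between there and 100, 3 were called higher, against 6.76% of tested genes. Of the 9 with a mean of 100 or more, none was called in either direction, where 2.29% were called higher. The median log2 fold change of the 55 was 0.73, and 40 were above 0. Of all 20056 tested genes 12612 were above 0, with a median of 0.25. At a mean of 1 to under 10 the median was 1.14 for the list and 0.93 for all tested genes. From there to under 100 it was 0.67 and 0.04, and above that -0.21 and -0.11. The shares of *RN18S1* and the numbers of detected genes, given above, also ran higher in *SOX2* KO, with overlapping ranges. With the covariate for the *RN18S1* share, 1 of the 55 genes was called, *TRAPPC9*. Without nc2, nc4 and ko4, 5 of the 55 were called.

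The 11 calls were *TRAPPC9*, *COBL*, *DDC*, *KLF14*, *MAGEL2*, *ASCL2*, *SLC22A18*, *IGF2*, *RTL1*, *DIO3* and *MEG8*. *TRAPPC9*, a gene of vesicle transport, had the most even change. It rose from 18.3, 22.2, 18.9, 28.8 and 20.1 in WT to 36.7, 70.0, 50.0, 63.3 and 38.1 in *SOX2* KO embryos. The groups did not overlap, and the log2 fold change of 1.19 had an SE of 0.27 (limma adjusted p = 0.00913). All 10 fits without 1 embryo kept the call, and the *RN18S1* covariate left an adjusted p of 0.0396 in limma.

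*COBL* is next to *GRB10* in RefSeq, and *DDC* is 1 gene away from it. *COBL*, an actin nucleator gene, had 0 to 5.97 across WT and 6.60 to 33.4 across *SOX2* KO embryos, with a log2 fold change of 2.29 (limma adjusted p = 0.0147). *DDC*, the decarboxylase gene of catecholamine and serotonin synthesis, held 3 reads in WT and 36 in *SOX2* KO (limma adjusted p = 0.00453). Both had no overlap between the groups and kept their calls in all 10 fits without 1 embryo. *GRB10* itself had a log2 fold change of 0.37, as above.

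*KLF14*, a transcription factor gene near *MEST*, had no read in any WT embryo and 2 to 9 reads in each *SOX2* KO embryo. The reads in ko1 to ko5 were 9, 3, 2, 2 and 7, so ko2, ko3 and ko4 were themselves within the floor of 3 reads. With WT set at that floor, the mean of *SOX2* KO was 1.88-fold higher, a ratio that rests on ko1 and ko5. The call came from the values as they stand, with WT at 0 (limma adjusted p = 0.00714). *MAGEL2*, a MAGE family gene near *SNRPN*, had 2 reads in WT and 22 in *SOX2* KO (limma adjusted p = 0.0150). In the region of *CDKN1C* and *PHLDA2*, *ASCL2*, a transcription factor gene of the trophoblast, had 4 reads in WT and 30 in *SOX2* KO (limma adjusted p = 0.0214). *SLC22A18*, a transporter gene, had 9 and 29 reads there (limma adjusted p = 0.0477), and *IGF2* had 3 and 22 (limma adjusted p = 0.0223). The calls of *ASCL2*, *SLC22A18* and *IGF2* were kept in 7, 4 and 4 of the 10 fits without 1 embryo. Of 13 other alternative fits, 9, 3 and 7 kept them, and *SLC22A18* lost its call with DESeq2 (adjusted p = 0.124).

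Other genes around the 10 did not reach a call. Near *PEG3*, *ZIM2* had 1 read in WT and 18 in *SOX2* KO, *ZIM3* had 40 of its 46 WT reads in nc4, and *USP29* had 10 reads in each group. Near *PEG10*, *PPP1R9A*, *CASD1*, *TFPI2*, *PON2* and *PON3* had limma adjusted p from 0.105 to 0.496. At *MEST*, the overlapping gene *COPG2* had a log2 fold change of -0.18 and the nearby *CPA4* of 0.63 (limma adjusted p = 0.698 and 0.444). Near *SNRPN*, *UBE3A*, *NDN*, *MKRN3* and *ATP10A* differed by -0.21, -0.30, -0.17 and 0.98 on the log2 scale (limma adjusted p from 0.123 to 0.641). *PHACTR2* near *PLAGL1* had 0.89 (limma adjusted p = 0.0938). In the *CDKN1C* region, *KCNQ1*, *TSSC4*, *CD81*, *NAP1L4* and *OSBPL5* had limma adjusted p from 0.0694 to 0.738. The most negative values of the list, picked out after they were seen, were those of *GPR1* (-1.87, limma adjusted p = 0.0730) and *ZDBF2* (-1.51, limma adjusted p = 0.0971). *H19*, *SGCE*, *SNURF* and *KCNQ1OT1* were not analysed here.

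*IGF2R*, which encodes the receptor that clears IGF2, was higher in *SOX2* KO by less than 2-fold. It had 160 to 192 across WT and 242 to 305 across *SOX2* KO embryos, without overlap, a difference of 0.56 on the log2 scale with an SE of 0.15 (limma adjusted p = 0.0189). An adjusted p of at most 0.05 at any fold was reached by 10.4% of all tested genes in the higher and by 3.20% in the lower direction. For *IGF2R* it was kept in 9 of the 10 fits without 1 embryo and lost with the *RN18S1* covariate (0.48, limma adjusted p = 0.218). *GNAS*, the gene of the stimulatory G protein subunit, had a log2 fold change of -0.06 (95% interval -0.39 to 0.27, limma adjusted p = 0.829).

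**Figure D5:**
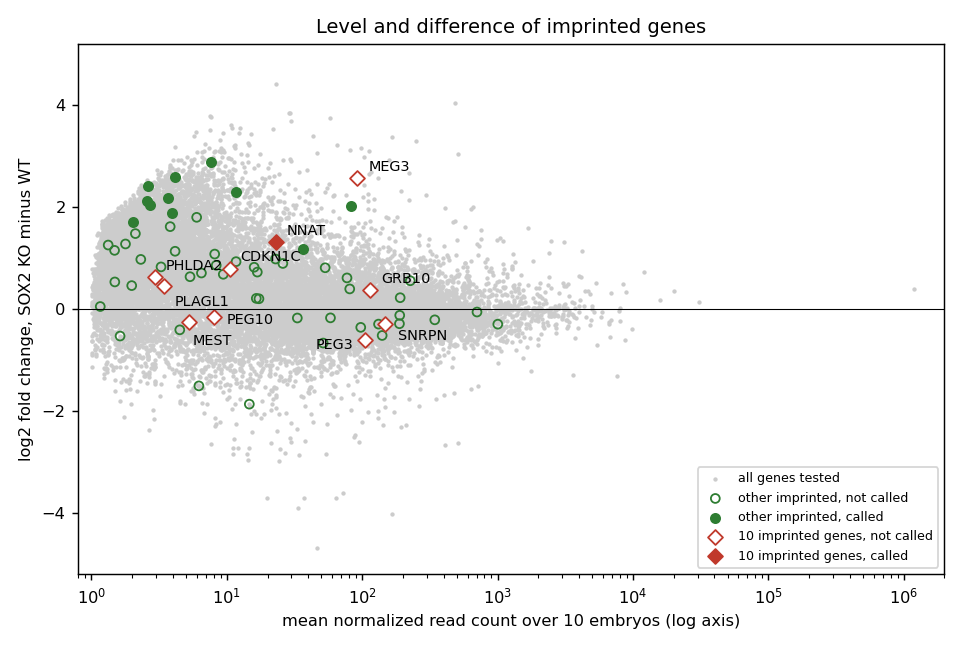
Log2 fold change (*SOX2* KO minus WT, y axis) against the mean normalized read count over 10 embryos (x axis, log scale) for all tested genes (grey), the 55 other imprinted genes (green circles, filled when called) and the 10 imprinted genes (red diamonds, filled when called). Of the 11 filled circles, 8 lie at a mean under 10, and *NNAT* is the filled diamond at 1.32.

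Imprints are protected after fertilization by ZFP57 and ZNF445, zinc finger proteins that bind methylated imprinted regions and recruit TRIM28, and by the maintenance methylase DNMT1 with UHRF1. Of 15 tested genes from a list of such factors and of maternal-effect genes tied to imprinting, 2 were called lower, *DPPA3* and *ZFP42*, and 1 higher, *NLRP5*, which held 4 reads in WT and 17 in *SOX2* KO. Of all tested genes, 1.16% were called lower and 8.93% higher. *DPPA3* kept its call in all 10 fits without 1 embryo, with DESeq2 and edgeR, and with the *RN18S1* covariate. *ZFP42* kept it in 7 of these fits, fell short of 2-fold with DESeq2 (-0.97) and lost it with the *RN18S1* covariate (-0.31, limma adjusted p = 0.518). *NLRP5* kept it in 3 of the fits and lost it with DESeq2 (adjusted p = 0.147), edgeR (adjusted p = 0.137) and the covariate (limma adjusted p = 0.302). *ZFP57* did not reach a call, with 131 to 160 across WT and 122 to 168 across *SOX2* KO embryos (log2 fold change -0.14, limma adjusted p = 0.589). *ZNF445* fell from 41.2, 50.4, 43.8, 49.0 and 43.7 in WT to 23.4, 22.4, 27.9, 24.6 and 31.1 in *SOX2* KO embryos. Its groups did not overlap, as in 2.76% of all tested genes in this direction, and its log2 fold change of -0.80 had an SE of 0.24 (limma adjusted p = 0.0347), short of 2-fold.

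*TRIM28* (-0.47, limma adjusted p = 0.0407) and *CTCF*, the insulator protein gene (-0.49, limma adjusted p = 0.0394), also fell by less than 2-fold. For *ZNF445*, *TRIM28* and *CTCF* the adjusted p stayed at or under 0.05 in 2, 2 and 1 of the 10 fits without 1 embryo. With the *RN18S1* covariate it was 0.178, 0.240 and 0.181 in limma. *DNMT1* and *UHRF1*, at 0.16 and 0.70, did not pass (limma adjusted p = 0.621 and 0.122). *DPPA3* is also among the epiblast markers below, and *ASCL2* among those of the trophectoderm.

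Lineage markers moved with the group as well, where the background of calls was 8.93% higher and 1.16% lower. Of 14 trophectoderm markers, 2 were called higher (*PAG2* and *ASCL2*) and none lower. *KRT18* rose by 0.73 on the log2 scale (limma adjusted p = 0.0394) and *TFAP2C* fell by 0.49 (limma adjusted p = 0.0352). Both were short of 2-fold. The summed level of the 14 markers was 25641 to 37675 across WT and 35267 to 48356 across *SOX2* KO embryos. Most of it came from the keratin genes *KRT8* and *KRT18*, without which it was 2213 to 3966 and 3230 to 4382. Of 9 epiblast markers, 4 were called lower (*NANOG*, *PRDM14*, *KLF17* and *DPPA3*), with sums of 2104 to 2645 and 1048 to 1394. *POU5F1* (-0.75, limma adjusted p = 0.00631) and *SALL4* (-0.63, limma adjusted p = 0.0257) also fell, by less than 2-fold. Of 8 primitive endoderm markers, *PDGFRA* and *HNF4A* were called lower and *APOA1* higher, with sums of 1618 to 1919 and 1807 to 2006. Without *APOA1* the sums were 1396 to 1727 and 1137 to 1311, so the higher total in *SOX2* KO was carried by that gene. The 8 markers of cumulus cells, which surround the egg, summed to 32.6 to 86.5 and 57.0 to 101, and none was called. None of the markers analysed here was at 0 in all embryos. The part of these shifts in the levels of *NNAT*, *MEG3* and the other imprinted genes was not tested.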

How the data were processed

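Single early blastocysts, 5 WT and 5 *SOX2* KO, were profiled by Smart-seq2, which captures polyadenylated RNA and has no molecular identifiers. The authors used Trimmomatic for trimming, HISAT2 for alignment against ARS-UCD1.2 and featureCounts for counting per gene, and deposited a normalized signal, that is, counts over DESeq2 size factors. The annotation release and the handling of strand and multi-mapped reads are not given in the sources used here. Dividing by the smallest step of each embryo turned all 201120 values (100%) into whole reads within 0.001.

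Columns were assigned to groups by name. The members and lists were chosen with earlier results of these data known. limma (version 3.58.1, trend) was run on log2(value + 1) over 20056 genes (mean 1 or more), without covariates, in R 4.3.3. The added 1 shrinks the fold change of low genes, while single embryos near 0 can widen it on the log scale. *CDKN1C*, for example, had 0.79 in limma and 0.14 with DESeq2. DESeq2 (1.42.0) and edgeR (4.0.16, quasi-likelihood) on the recovered reads, other pseudocounts, scalings, weights, filters and covariates, and leaving out each embryo were alternatives. The limma, DESeq2 and edgeR fits were checked on simulated counts. Named genes were the 10 members, the genes of their domains, every called gene of the lists, and *IGF2*, *IGF2R*, *DLK1* and *GNAS*. *CPA4* was matched by its gene ID. A lineage marker of the planned lists is not reported here. PCR copies count as separate reads, so the detection floor covers counting error only. Gene order and overlaps came from RefSeq positions of ARS-UCD2.0; no coordinates or sequences are printed.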

Additional observations from a re-analysis of the deposited data

Results flagged for a closer look

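Each of 104 groups of 5 embryos (52 genes in WT and in *SOX2* KO) was examined for an embryo far from the other 4. There were 13 such groups, against a nominal 5.2 by chance. That figure makes no allowance for groups in which a few reads in an embryo stand beside embryos without any read. Several of the 13 groups are of this kind, and some genes were included because they were called. No excess over chance can therefore be read from these numbers. None of the 13 groups involved the 10 imprinted genes.

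*MEG8* had a normalized read count of 140 in the WT embryo nc5 and 4.45 to 41.8 in the other WT embryos. *IGF2R* had 160 in nc2, the smallest library, and 185 to 192 in the others. *ZIM3* had 31.1 in nc4 and at most 1.77 in the others, and *PON3* had 16.3 in nc2 and at most 3.98. *ATP10A* had 42.3 in the *SOX2* KO embryo ko1 and 22.1 to 27.7 in the others. *MAGEL2* and *TFPI2* had 9.22 and 5.77 in ko5, against at most 4.45 and 2.46.

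The other 6 rest on 1 to 4 reads in a single WT embryo. They are *ZIM2* (0.763) and *NLRP5* (3.05) in nc1, *TFPI2* (2.97) in nc2, and *MAGEL2* (1.99), *DLK1* (0.994) and *IGF2* (2.98) in nc3.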

How the results depend on the processing

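No paired analysis was possible because columns ko1 to ko5 could not be tied to single labelled replicates, and the fit with a replicate block was not run. Of the 10 imprinted genes, 1 was called. The number was 2 (*NNAT* and *MEG3*) with sample quality weights, with the *XIST* covariate and without nc2, nc4 and ko4. The *XIST* covariate was chosen after the values were seen, and the last fit leaves out the 3 embryos lowest in *MEG3*. Neither of these fits is a test of *MEG3*. The number was 0 with the *RN18S1* covariate, and 0 to 2 without single embryos. *NNAT* stayed above 0 in every fit. Of the other imprinted genes, 11 were called; the number was 5 with a pseudocount of 5 and without the 3 embryos, 7 with quantile normalization (5 higher and 2 lower, *GPR1* and *ZDBF2*) and with edgeR, 2 of 27 at a mean of at least 10, 1 with the *RN18S1* covariate, and 6 to 14 without single embryos. Of the maintenance genes, 3 were called; it was 1 with quantile normalization, the *RN18S1* covariate and DESeq2, 6 at any fold, and 1 to 4 without single embryos. Of all genes, 2024 were called; it was 1185 with a pseudocount of 5, 1082 with quantile normalization (630 higher, 452 lower), 3515 with quality weights, 692 at a mean of at least 10, 220 with the *RN18S1* covariate, and 930 without ko5 to 3316 without ko4. The cause of these shifts was not tested. The median log2 fold change of all genes was -0.02 with quantile normalization, 0.14 with equal totals and 0.34 with median log ratios.

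Direction turned for genes that were not called. With quantile normalization the log2 fold changes were -0.42 for *PLAGL1*, -0.25 for *PHLDA2*, -0.55 for *USP29*, -0.18 for *CPA4*, -0.040 for *PON3*, -0.10 for *TSSC4* and 0.014 for *GNAS*, and *GNAS* had 0.044 with median log ratios. With the *RN18S1* covariate they were -0.11 for *PHLDA2*, -0.31 for *USP29*, -0.023 for *TSSC4*, 0.051 for *MKRN3* and 0.000913 for *GNAS*. Without nc2, nc4 and ko4 they were 0.036 for *PEG10*, -0.20 for *TSSC4* and -0.00698 for *BLCAP*. Without single embryos, *PEG10* ran from -0.55 to 0.22, *MEST* from -0.54 to 0.035 and *GNAS* from -0.14 to 0.023.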
